A study of Rattus norvegicus with 6 samples.

Results

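The genes that make sterols and fatty acids, that sense sterol, and that carry sterol out of the cell were examined in NRK-52E, a rat line of kidney tubule epithelium. The list named 35 genes. A gene had a value where a probe set of the array carried its symbol and no other in the platform annotation, which held for 32 of the 35, each with 1 probe set, out of 18166 genes measured in all. Hmgcs1, Mvk and Fasn are not analysed here. The study compared 3 arrays of control cells with 3 arrays of cells in which the intracellular domain of Notch1 (NICD1), the fragment that enters the nucleus after receptor cleavage, was overexpressed from the pINDUCER21 vector. Both groups grew in medium with fetal calf serum, which supplies lipoprotein cholesterol. The sources used here do not give what the control cells carried, whether an inducer was added, how long the domain was expressed or whether the lines were clones or pools. Nor do they say that replicates came from different cultures, and the p-values then cover the spread between arrays alone, which may be technical.

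Cholesterol is built from acetyl-CoA by way of mevalonate, isoprenoid units and squalene, and the enzymes of this route are switched on together by the transcription factor SREBP2, the product of Srebf2. Its relative SREBP1, from Srebf1, acts mainly on fatty acid synthesis and desaturation. Both precursors sit in the endoplasmic reticulum with the escort protein Scap and are held there by Insig1 or Insig2 when sterols are plentiful. Insig1 is itself an SREBP target, so its transcript usually moves with the enzymes. When sterols accumulate, the nuclear receptor LXR induces the exporters Abca1 and Abcg1 and the ubiquitin ligase gene Mylip, whose product degrades lipoprotein receptors. Kidney tubule cells can both make cholesterol and take it up from lipoproteins.

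Values are RMA intensities on the log2 scale, on which a difference of 1 is a doubling. Array medians ranged from 57.5 to 60.1 on the linear scale, and r between arrays across probe sets was 0.993 to 0.995 within groups and 0.989 to 0.991 between them. Notch1 was higher in the NICD1 arrays (9.15, 9.12 and 9.26 against 8.66, 8.39 and 8.51; the sources used here do not give whether its probes read the introduced domain). A gene was called changed at an adjusted p under 0.05 in limma, with Benjamini-Hochberg adjustment over all genes, and that rule called 14.7% of genes, 7.22% downward and 7.45% upward. Chemosensory receptor genes, most of which are silent outside sensory tissue, gave a background level of 5.74. Of 10 kidney epithelial markers, Krt8, Tjp1 and Ocln lay well above it in both groups, while Epcam, Cdh1, Krt18, Cldn1 and Pax8 lay below it, and 5 of 9 proximal tubule markers lay below it, so the labelled cell type was only in part visible in its markers. Of the markers of other cell types, 5 of 8 for fibroblasts, 3 of 4 for endothelium, 5 of 6 for leukocytes, 4 of 5 for adipocytes and 5 of 5 for hepatocytes lay below background in both groups.

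Some of these markers moved with the group, beside the sterol and fatty acid genes. Of the kidney epithelial list Krt8, a keratin, rose by 1.08 and Tjp1, a tight junction scaffold, fell by 0.26 (limma adjusted p = 3.24e-05 and 0.0175), and of the proximal tubule list the endocytic adaptor Dab2 fell by 2.34 and the peptidase gene Anpep by 0.26 (limma adjusted p = 7.50e-06 and 0.0138). Anpep lay below background in both groups (means 5.58 in control and 5.32 in NICD1 cells), and its call was lost with an intensity trend and robust prior. In the fibroblast list Col1a1, a collagen chain, rose by 0.90, in the endothelial list the receptor gene Tek fell by 0.57, and in the leukocyte list the lysosomal Cd68 rose by 0.27 (limma adjusted p = 0.00166, 0.00260 and 0.0223). The summed linear intensity of the lists in control and NICD1 arrays was 5983 to 6230 and 6775 to 7028 for kidney epithelium, 908 to 1039 and 511 to 543 for proximal tubule, 594 to 690 and 776 to 810 for fibroblasts, 300.4 to 323 and 239.8 to 249 for endothelium, and 220.4 to 229 and 242 to 251 for leukocytes. These sums weigh the brightest genes most, and the lists did not move as a whole. Apart from Dab2, the proximal tubule genes differed by -0.26 to 0.20. Apart from Krt8, the kidney epithelial genes differed by -0.26 to 0.19, and apart from Col1a1, the fibroblast genes by -0.24 to 0.16. The endothelial genes other than Tek differed by -0.06 to 0.06, and the leukocyte genes other than Cd68 by -0.03 to 0.12. The adipocyte and hepatocyte lists had 0 genes called, and their sums overlapped between groups. With 1 array left out at a time, the call of Tjp1 was lost for 5 of the 6 arrays, that of Anpep for 3 and that of Cd68 for 5. The part of these shifts in the results that follow was not tested.

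Sterol and fatty acid genes were lower in NICD1 cells more often than higher. Of the 32 measured, 14 fell (43.8%, against 7.22% of all genes), 2 rose (6.25%, against 7.45%) and 16 did not pass. The members were chosen with earlier results of these data known. These shares, and the medians that follow, therefore describe the list and are not an independent test. The median difference over the 32 was -0.24, and over all genes it was 0.0073. The difference was negative for 27 of the 32. In 19 of them every NICD1 array lay below every control array, as was so for 15.7% of all genes, and in 2 every NICD1 array lay above, as for 17% of all genes. The 14 that fell were 9 sterol enzymes, Fads1, Fads2, Elovl6, Insig1 and Abca1. The 2 that rose were Hsd17b7 and Insig2.

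**Figure D1:**
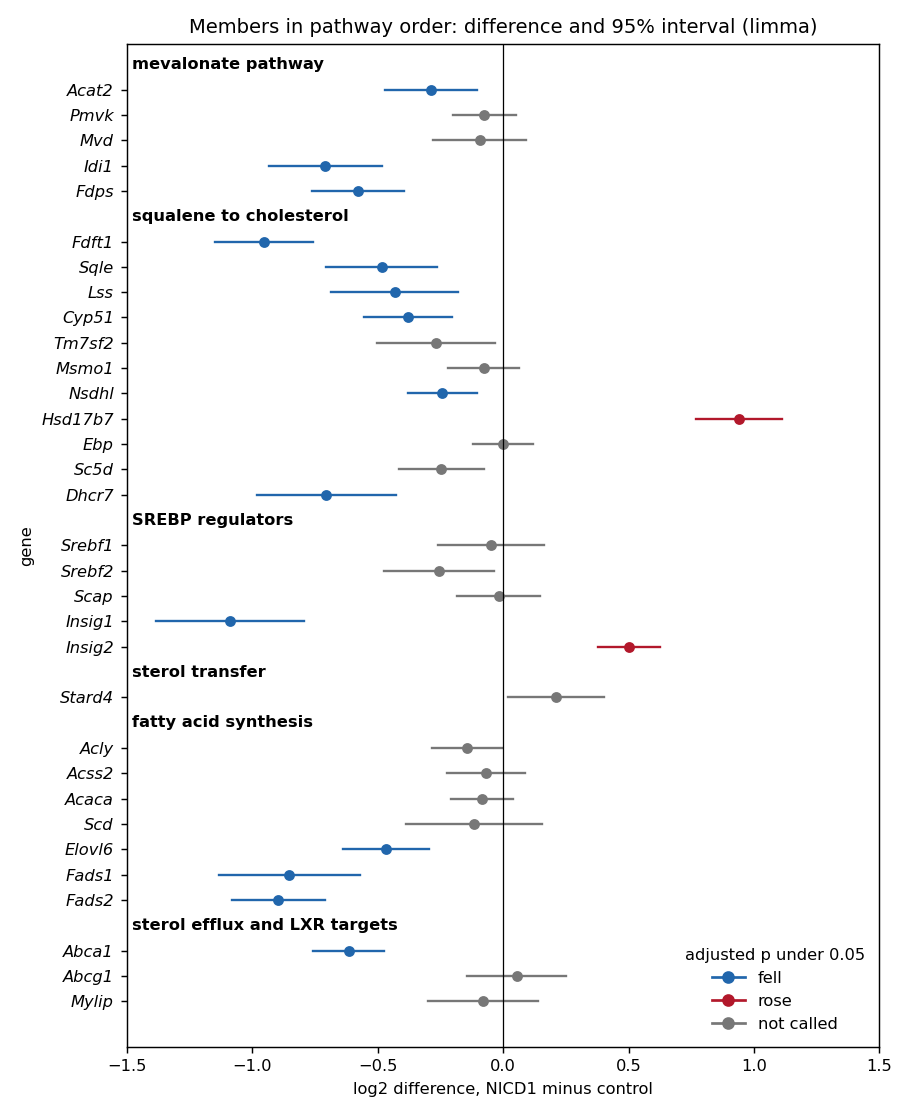
The 32 genes in pathway order, each with its log2 difference between NICD1 and control (point) and the 95% interval from limma (line), coloured by the call. Blue points, the 14 falls, run from -1.09 for Insig1 to -0.24 for Nsdhl, and the 2 red points are Hsd17b7 at 0.94 and Insig2 at 0.50.

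Control arrays differed among themselves in these genes. Control replicate 1 was the highest control in 24 of the 32 genes, against 43.2% of all genes. The mean level of the 16 sterol enzymes was 9.29 on control replicate 1, 9.18 on control replicate 2 and 9.09 on control replicate 3, while the 3 NICD1 arrays lay at 8.88, 8.91 and 8.91. The 7 fatty acid genes had mean levels of 9.58, 9.44 and 9.43 in control replicates 1 to 3 and 9.11, 9.13 and 9.08 in NICD1 replicates 1 to 3. So the controls differed among themselves more than the NICD1 arrays did, and the lowest control mean still exceeded the highest NICD1 mean in both classes. The part of this spread in the results was not tested beyond leaving out each array. Without control replicate 1 the median difference of the 32 genes was -0.17 and 11 of them fell. In that fit 2486 of all 18166 genes changed in either direction, in place of 2666.

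**Figure D2:**
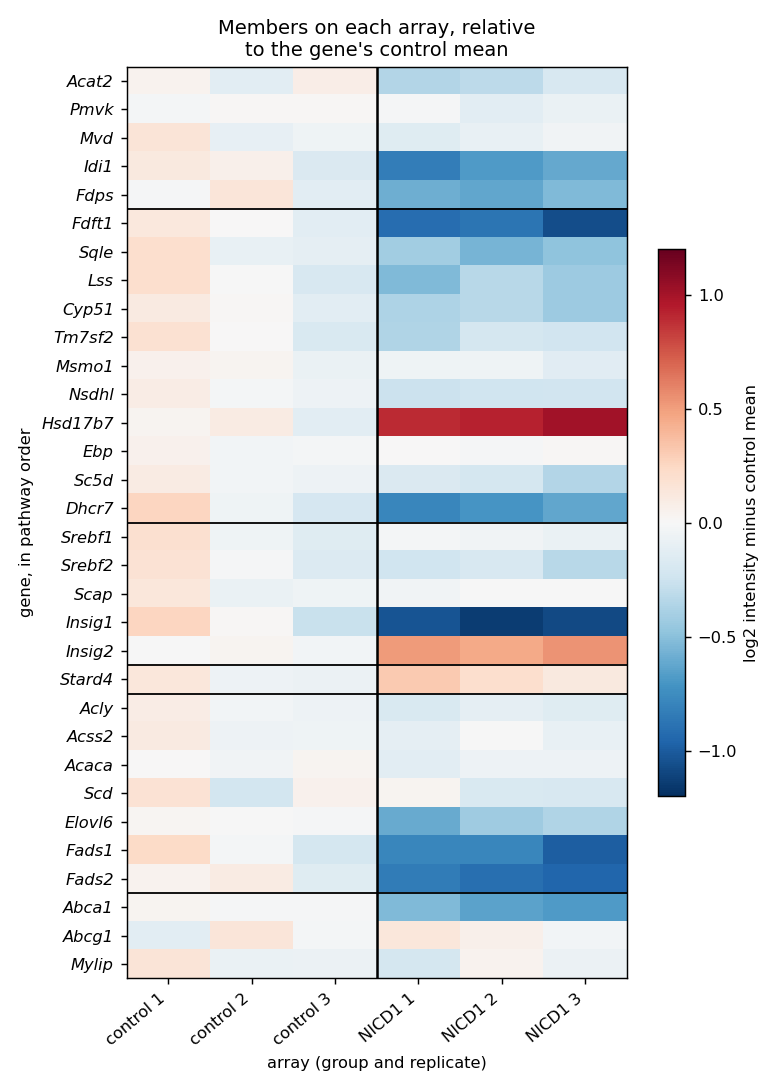
Each row is a gene and each column an array; colour gives log2 intensity minus that gene's mean over the 3 control arrays, blue lower and red higher. The 3 NICD1 columns are blue for Insig1, Fdft1, Fads2, Fads1, Idi1 and Dhcr7 and red for Hsd17b7 and Insig2, and control replicate 1 is the reddest control column in most rows.

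In the mevalonate branch, 3 of 5 measured genes fell (60%, against 7.22% of all genes) and 0 rose (against 7.45%). Idi1 encodes the isomerase that interconverts the isoprenoid units. Its levels were 9.04, 8.98 and 8.75 on the control arrays and 8.09, 8.25 and 8.31 on the NICD1 arrays. The groups lay apart, and the difference was -0.71 (SE 0.096; limma adjusted p = 0.00287), 1.63-fold lower. Fdps encodes farnesyl diphosphate synthase, which joins those units into the last shared precursor of sterols and prenyl groups. It stood at 11.09, 11.25 and 10.99 in control and at 10.52, 10.49 and 10.58 in NICD1 cells. It fell by 0.58 on the log2 scale (SE 0.077; limma adjusted p = 0.00267), with 0.40 between the nearest arrays of the groups.

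Smaller differences were measured at the first and middle steps of this branch. Acat2, the cytosolic thiolase that joins acetyl-CoA, had levels of 8.61, 8.44 and 8.65 in control and 8.22, 8.25 and 8.37 in NICD1 cells. Its fall of 0.29 lay at the threshold (SE 0.077; limma adjusted p = 0.0497), the groups were 0.064 apart, and the call was lost on leaving out any array except control replicate 2, with adjusted p up to 0.152. Pmvk, the phosphomevalonate kinase, differed by -0.07 (95% interval -0.20 to 0.05). Mvd, the decarboxylase that yields the first isoprenoid unit, differed by -0.09 (95% interval -0.28 to 0.09). The groups overlapped for both, and neither passed.

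From squalene to cholesterol, 6 of 11 genes fell (54.5%, against 7.22% of all genes) and 1 rose (9.09%, against 7.45%). Fdft1, squalene synthase, commits farnesyl diphosphate to sterols. Its levels were 10.91, 10.78 and 10.66 in control and 9.87, 9.90 and 9.72 in NICD1 cells. It was 1.94-fold lower (difference -0.95, SE 0.083; limma adjusted p = 0.000339). The gap between the groups, 0.75, exceeded the range of the controls, 0.25. Sqle, the squalene epoxidase and a slow step of the route, stood at 9.96, 9.67 and 9.65 in control against 9.34, 9.20 and 9.28. Its difference was -0.48 (SE 0.094; limma adjusted p = 0.0143), and the call was lost without NICD1 replicate 2 (adjusted p = 0.0550).

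The enzymes of the next steps also fell. Lss closes the squalene chain into lanosterol, and Cyp51 removes its first methyl group. Lss had levels of 8.99, 8.78 and 8.59 in control and 8.26, 8.45 and 8.35 in NICD1 cells, a difference of -0.43 (SE 0.106; limma adjusted p = 0.0364). Cyp51 had levels of 9.22, 9.13 and 8.98 against 8.74, 8.78 and 8.67, a difference of -0.38 (SE 0.074; limma adjusted p = 0.0148). For Lss the controls alone spanned 0.40, nearly as much as the difference, and the call was lost without any array except control replicate 3, with adjusted p up to 0.116. The call of Cyp51 was lost without control replicate 2 or NICD1 replicate 3, with adjusted p up to 0.0564.

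The enzymes that trim lanosterol differed from one another. Nsdhl, a dehydrogenase of C4 demethylation, stood at 9.57, 9.45 and 9.42 in control and 9.22, 9.24 and 9.25 in NICD1 cells. It fell by 0.24 (SE 0.058; limma adjusted p = 0.0329), and the call was lost without any array except control replicate 3, with adjusted p up to 0.107. Msmo1, the oxidase that acts before Nsdhl, differed by -0.08 (95% interval -0.22 to 0.06) and its groups overlapped. Hsd17b7, the ketoreductase that acts after Nsdhl, went the other way.

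Hsd17b7 had levels of 8.59, 8.66 and 8.43 in control and 9.45, 9.49 and 9.56 in NICD1 cells. All NICD1 arrays lay above all controls by at least 0.80. It rose by 0.94 (SE 0.073; limma adjusted p = 0.000197), 1.92-fold, in a step that Msmo1 and Nsdhl share. Its product also reduces estrone to estradiol in other tissues.

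Of the last steps, Dhcr7 changed most. It encodes the reductase that turns the last intermediate into cholesterol. Its levels were 8.63, 8.32 and 8.17 in control and 7.59, 7.66 and 7.75 in NICD1 cells. The lowest control exceeded the highest NICD1 array by 0.42, and the difference was -0.70 (SE 0.117; limma adjusted p = 0.00728). Sc5d, the desaturase that makes its substrate, differed by -0.25 (95% interval -0.41 to -0.08; limma adjusted p = 0.0659). It did not pass, although the groups did not overlap, and it was called lower under 4 of the alternatives, among them median centring. Tm7sf2, a sterol reductase, differed by -0.27 (95% interval -0.50 to -0.03; limma adjusted p = 0.137) and did not pass. Ebp, the isomerase that shifts the ring's double bond, had a difference of 0.00036 (95% interval -0.12 to 0.12), and its level was 9.26 to 9.35 on every array.

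Over both branches, 9 of 16 sterol enzymes fell (56.25%, against 7.22% of all genes) and 1 rose (6.25%, against 7.45%), with a median difference of -0.28. That count was 5 without NICD1 replicate 2 or without NICD1 replicate 3, and the median lay between -0.32 and -0.23 over the arrays left out. Idi1, Fdps, Fdft1 and Dhcr7 were the falls among the enzymes that passed under every alternative, including an adjusted p under 0.01.

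The regulators did not move as a block. Insig1, the anchor protein whose gene answers to SREBP, had levels of 9.75, 9.50 and 9.22 in control and 8.46, 8.35 and 8.41 in NICD1 cells. Controls spanned 0.52 and NICD1 arrays 0.11, with 0.77 between the groups. It was 2.12-fold lower (difference -1.09, SE 0.125; limma adjusted p = 0.00127), the largest difference of the 32 genes. Without control replicate 1 it was -0.96, and the call held without any 1 of the arrays.

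Insig2, which serves the same anchoring role but is not induced by SREBP, moved the opposite way. It stood at 8.65, 8.69 and 8.63 in control and at 9.17, 9.12 and 9.20 in NICD1 cells. Replicates lay within 0.081 of each other in each group, and the rise was 0.50 (SE 0.052; limma adjusted p = 0.000776), 1.42-fold. The call held without any 1 of the arrays, with differences from 0.49 to 0.53.

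The transcription factor genes and their escort did not pass. Srebf2 had levels of 11.04, 10.85 and 10.71 in control and 10.63, 10.67 and 10.53 in NICD1 cells, a difference of -0.26 (95% interval -0.47 to -0.04; limma adjusted p = 0.125). The groups did not overlap, by 0.034, and Srebf2 was called lower with an intensity trend and robust prior. Srebf1 had levels of 8.89, 8.65 and 8.56 against 8.68, 8.66 and 8.62, a difference of -0.05 (95% interval -0.26 to 0.16). Scap had levels of 10.61, 10.39 and 10.43 against 10.44, 10.47 and 10.47, a difference of -0.02 (95% interval -0.18 to 0.15). The groups of Srebf1 and Scap overlapped, control replicate 1 was the highest array for all 3 genes, and these values say nothing of how much protein was cleaved. Without control replicate 1 the sign turned for Srebf1 (0.05) and Scap (0.05).

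Stard4, a soluble carrier of sterol between membranes and an SREBP2 target, did not pass. Its levels were 8.00, 7.81 and 7.80 in control and 8.19, 8.08 and 7.98 in NICD1 cells. The highest control lay above the lowest NICD1 array, and the difference was 0.21 (95% interval 0.02 to 0.40; limma adjusted p = 0.146).

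**Figure D3:**
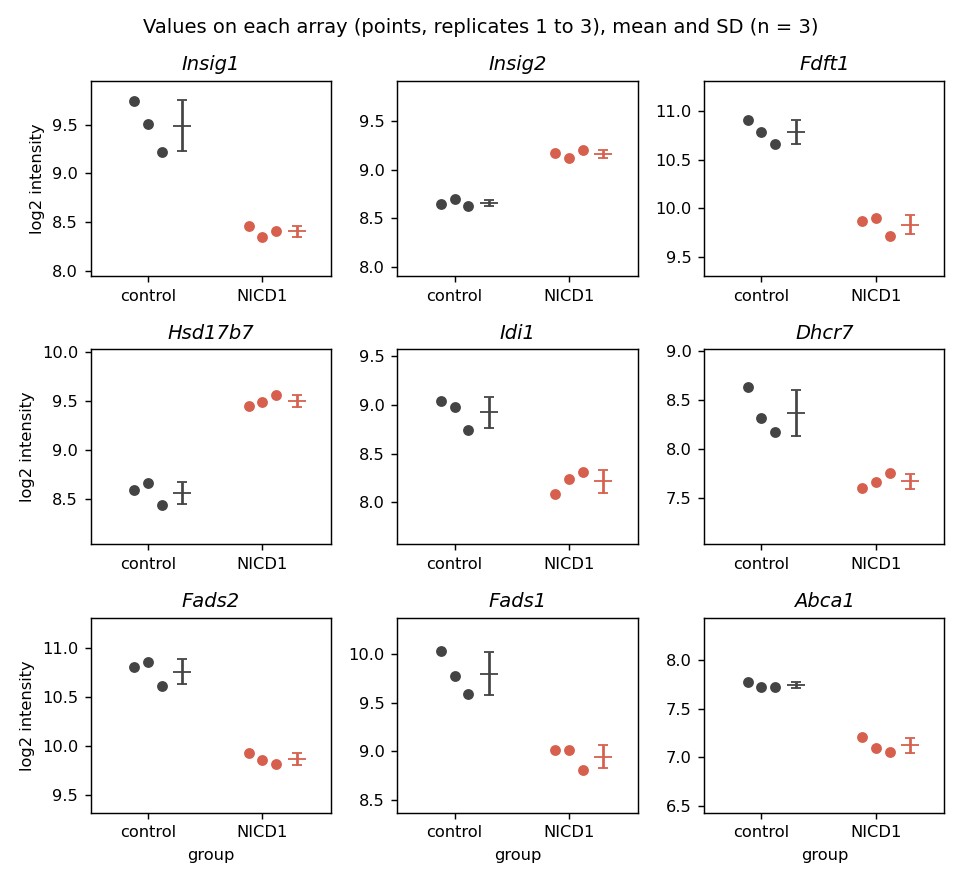
Log2 intensity of 9 genes on the 3 control (grey) and 3 NICD1 (red) arrays, with mean and SD beside the points; every panel spans 2 log2 units. The groups do not overlap in any panel, Insig2 and Hsd17b7 are higher in NICD1 cells, and Insig1, Dhcr7 and Fads1 have a wider control spread than Insig2 and Abca1.

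To set sequence beside these changes, promoter windows from RefSeq (GRCr8, 250 bases before to 50 after the annotated start, 300 in all) were taken for the 3 largest falls and the 2 rises. The sources used here do not give the build of the array design. Fdft1 had no window. The Insig2 window starts at a RefSeq start that lies inside the annotated gene. Sequences run 5′ to 3′ on the gene's strand, and capitals mark a CCAAT box (CCAAT or, on the other strand, ATTGG), an E-box (CACGTG) or the core of the site of the Notch partner RBPJ (TGGGAA or TTCCCA).
Insig1 promoter, chr4:8057720-8058019, minus strand: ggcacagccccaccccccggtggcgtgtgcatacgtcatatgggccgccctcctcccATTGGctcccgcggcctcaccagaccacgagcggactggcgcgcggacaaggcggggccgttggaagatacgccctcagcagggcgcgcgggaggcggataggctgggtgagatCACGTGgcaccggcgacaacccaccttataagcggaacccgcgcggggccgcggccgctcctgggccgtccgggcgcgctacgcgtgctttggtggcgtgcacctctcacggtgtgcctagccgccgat
Fads2 promoter, chr1:216171984-216172283, minus strand: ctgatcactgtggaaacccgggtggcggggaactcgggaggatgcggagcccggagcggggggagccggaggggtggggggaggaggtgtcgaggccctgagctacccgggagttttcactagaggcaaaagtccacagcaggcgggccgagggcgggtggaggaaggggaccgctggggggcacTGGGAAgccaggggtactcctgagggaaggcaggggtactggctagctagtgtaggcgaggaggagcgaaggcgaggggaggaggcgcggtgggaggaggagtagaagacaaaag
Hsd17b7 promoter, chr13:84722705-84723004, minus strand: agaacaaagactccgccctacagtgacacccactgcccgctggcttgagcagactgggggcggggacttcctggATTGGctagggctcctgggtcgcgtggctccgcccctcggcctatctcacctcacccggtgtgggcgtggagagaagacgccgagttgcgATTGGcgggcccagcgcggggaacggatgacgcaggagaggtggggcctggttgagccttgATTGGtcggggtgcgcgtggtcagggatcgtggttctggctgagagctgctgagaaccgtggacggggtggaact
Insig2 promoter, chr13:35040049-35040348, minus strand: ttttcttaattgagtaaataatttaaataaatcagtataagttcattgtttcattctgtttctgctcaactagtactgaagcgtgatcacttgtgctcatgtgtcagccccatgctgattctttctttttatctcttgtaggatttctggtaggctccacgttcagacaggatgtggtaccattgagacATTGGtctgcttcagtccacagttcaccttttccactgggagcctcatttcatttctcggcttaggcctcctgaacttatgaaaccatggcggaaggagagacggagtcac

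The Insig1 window held 1 CCAAT box and 1 E-box, which begins at position -79 from the start. The Hsd17b7 window held 3 CCAAT boxes, and that of Insig2 held 1. The Fads2 window held 1 TGGGAA, which begins at position -65, and no CCAAT box. CCAAT boxes bind NF-Y, a frequent partner of SREBP. Of 24 measured genes with exactly 1 window, 17 (70.8%) held a CCAAT box, against 37.5% of the 33469 windows of this length in the table. They were 6 of 11 genes that fell, 2 of 2 that rose and 9 of 11 that did not pass. These counts include the Insig2 window, which starts inside the annotated gene, and the main start of Insig2 may lie elsewhere. The RBPJ core was in 5 of the 24 (Fdps, Cyp51, Nsdhl, Scd and Fads2; 20.8%, against 25.7% of all windows). The E-box was in 4 of the 24 (16.7%, against 6.42%). The shares over all windows were not limited to measured genes or to genes with exactly 1 window, so the sets compared are unlike. A sterol response element spelled TCACNCCAC was searched on both strands and was in 0 of the 24 windows and in 1.12% of all windows, which says only that these letters are not in these windows. None of these motifs overlaps another in the windows shown, and a match is a description of letters and not a bound site.

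Fads2, Fads1 and Elovl6 were the fatty acid genes that fell. Of 7 measured, 3 fell (42.9%, against 7.22% of all genes) and 0 rose (against 7.45%). The median difference was -0.14, and all 7 differences were negative. Fads2, the desaturase that starts the making of long polyunsaturated fatty acids, had levels of 10.80, 10.86 and 10.61 in control and 9.93, 9.86 and 9.81 in NICD1 cells. The groups were 0.69 apart, and it was 1.86-fold lower (difference -0.90, SE 0.078; limma adjusted p = 0.000339). Fads1, the desaturase that acts later in the same route, had levels of 10.03, 9.78 and 9.58 against 9.01, 9.01 and 8.81. It was 1.80-fold lower (difference -0.85, SE 0.119; limma adjusted p = 0.00325), with controls spanning 0.44.

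Elovl6, which lengthens palmitate to stearate, had levels of 10.41, 10.39 and 10.38 in control and 9.79, 9.97 and 10.03 in NICD1 cells. The controls lay within 0.033 and the NICD1 arrays spanned 0.24, the reverse of the pattern in Insig1. The fall was 0.47 (SE 0.073; limma adjusted p = 0.00546). All 3 falls in this class were called without any 1 of the arrays.

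The other 4 fatty acid genes did not pass. Acly, which makes cytosolic acetyl-CoA from citrate, had levels of 10.72, 10.61 and 10.58 in control and 10.46, 10.53 and 10.50 in NICD1 cells, a difference of -0.14 (SE 0.059; limma adjusted p = 0.176). It was called lower with an intensity trend and robust prior. Acss2, which makes acetyl-CoA from acetate, differed by -0.07 (95% interval -0.22 to 0.09), and Acaca, the carboxylase that commits it to fatty acids, by -0.08 (95% interval -0.21 to 0.04). Scd, a desaturase that makes oleate, differed by -0.12 (95% interval -0.39 to 0.15), with controls from 6.47 to 6.86 and NICD1 arrays from 6.50 to 6.72. Scd2, a gene of the same family outside the member list, was brighter, with means of 12.17 in control and 12.06 in NICD1 cells. It differed by -0.11 (95% interval -0.27 to 0.05) and did not pass. These intervals leave out a fall as large as that of Fads2. Without control replicate 2 the class median was -0.23, since Scd then differed by -0.23.

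Of the 3 efflux and LXR genes, 0 rose (against 7.45% of all genes) and 1 fell (33.3%, against 7.22%), which was Abca1. This transporter loads cellular cholesterol onto apolipoprotein A-I. Its levels were 7.77, 7.72 and 7.72 in control and 7.21, 7.10 and 7.06 in NICD1 cells. Controls lay within 0.053, the groups were 0.51 apart, and the fall was 0.62 (SE 0.060; limma adjusted p = 0.000563), 1.53-fold. Abcg1, a sterol transporter that acts beside it, had levels of 5.66, 5.93 and 5.76 against 5.91, 5.85 and 5.75, close to the background of 5.74, and a difference of 0.05 (95% interval -0.14 to 0.25). Mylip had mean levels of 5.70 and 5.62, below background in both groups, and a difference of -0.08 (95% interval -0.30 to 0.14). So of these genes Abca1 was the one measured clearly above background.

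**Figure D4:**
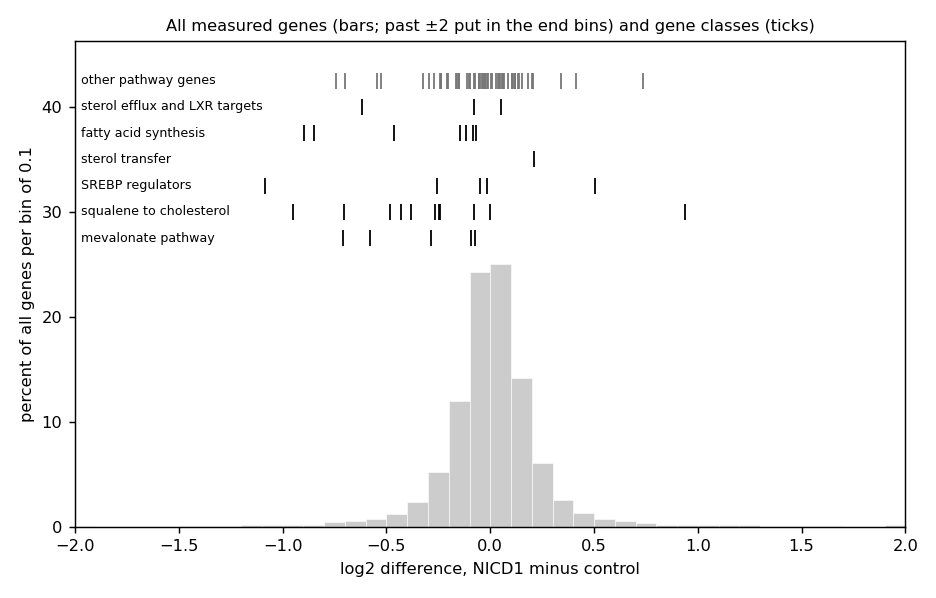
Grey bars give the percent of the 18166 genes in each bin of log2 difference, and ticks above them mark each gene of the classes, with the other pathway genes in the top row. Ticks of the mevalonate, squalene and fatty acid classes lie mostly left of 0, while the other pathway genes lie on both sides with a median of -0.02.

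Further genes of these pathways were listed from general knowledge, with earlier results of these data known. Of 63 listed, 56 had a value, 8 fell (14.3%, against 7.22% of all genes) and 2 rose (3.57%, against 7.45%), and their median difference was -0.02. Among sterol synthesis, uptake and storage genes 1 of 8 fell (12.5%, against 7.22% of all genes), the lysosomal lipase Lipa. It went from 10.06, 10.08 and 10.08 to 9.72, 9.80 and 9.74 (difference -0.32, SE 0.051; limma adjusted p = 0.00568). The other 7 differed by -0.06 to 0.20. Among genes of SREBP processing and sterol-regulated degradation 1 of 8 fell (12.5%, against 7.22% of all genes). It was Erlin2, a membrane scaffold in the degradation of ER proteins (difference -0.24, SE 0.060; limma adjusted p = 0.0393). Its call was lost without any array except control replicate 1, and the other 7 differed by -0.16 to 0.04.

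Among 24 fatty acid and glycerolipid genes 3 fell (12.5%, against 7.22% of all genes) and 2 rose (8.33%, against 7.45%). The falls included Acsl3, which activates fatty acids at the ER and lipid droplets. Its levels were 9.98, 9.88 and 9.83 in control and 9.17, 9.26 and 9.16 in NICD1 cells (difference -0.70, SE 0.063; limma adjusted p = 0.000410). Acsl1, an isoform with the same reaction, rose from 8.73, 8.52 and 8.91 to 9.47, 9.41 and 9.49 (difference 0.74, SE 0.099; limma adjusted p = 0.00270). The pair lay apart in opposite directions by similar amounts. Of the enzymes of triglyceride synthesis, the phosphatidate phosphatase Lpin1 (difference -0.54, SE 0.064; limma adjusted p = 0.00139) and the acyltransferase Dgat2 (difference -0.53, SE 0.054; limma adjusted p = 0.000713) fell. Gpam, Agpat2 and Dgat1, in the same list, differed by 0.0028, -0.02 and -0.21 and did not pass. Lpl, the lipase that frees fatty acids from lipoproteins, rose by 0.41 (SE 0.107; limma adjusted p = 0.0435). Its call was lost without any array except NICD1 replicate 3. The call was also lost with a replicate block, median centring, a second quantile normalisation and a threshold of 0.01.

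Among 16 oxysterol, LXR and efflux genes 3 fell (18.75%, against 7.22% of all genes) and 0 rose (against 7.45%). Stard5, a START-domain carrier protein related to Stard4, had levels of 9.10, 9.17 and 9.27 in control and 8.34, 8.42 and 8.55 in NICD1 cells. The groups were 0.55 apart, and the fall was 0.74 (SE 0.075; limma adjusted p = 0.000702). Rxra, the partner receptor of LXR, fell by 0.30 (SE 0.067; limma adjusted p = 0.0262), and Lpcat3, an LXR target that remodels phospholipids, by 0.24 (SE 0.062; limma adjusted p = 0.0408). The call of Lpcat3 was lost on leaving out any 1 of the 6 arrays, and that of Rxra on leaving out control replicates 1 or 2 or NICD1 replicates 2 or 3. Of these 16 genes, 7 lay below background in both groups.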

How the data were processed

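RNA of 6 NRK-52E samples, 3 control and 3 NICD1 by their titles, was read on Affymetrix whole-transcript arrays. The deposited values are RMA intensity values on a linear scale, made by the authors with RMA in Affymetrix Expression Console (source: the submitters' processing notes). The method subtracts background, equalises the distributions of the arrays and combines probes, so a shift shared by most genes is removed. The sources used here do not give the array model, the build or software versions. Precision is limited by the number of arrays.

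The annotation gave 1 gene symbol for 18511 of 36685 probe sets, several for 575 and none for 17599. Values were put on the log2 scale with no pseudocount and averaged per symbol (18166 genes), and limma 3.58.1 in R 4.3.3 (lmFit, eBayes, two-sided) compared the groups over all genes with Benjamini-Hochberg adjustment. All member gene identifiers matched RefSeq (GRCr8), with 0 symbols changed. The background level is the 95th percentile of the mean of 1397 chemosensory receptor genes. The fit was checked on simulated data. Members and lists were chosen with earlier results of these data known. All measured members are named, as are further pathway genes that passed. Alternatives were a replicate block, median centring, a second quantile normalisation, a pseudocount of 16, dropping the dimmest 30% of genes, a robust prior with intensity trend, array weights, the brightest probe set, a threshold of 0.01 and leaving out each array. Figures were drawn with matplotlib 3.10.9.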

Additional observations from a re-analysis of the deposited data

How the results depend on the processing

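Of the 16 members called changed, 11 kept their call under all alternatives, and 0 changed sign. The exceptions were Acat2, Sqle, Lss, Cyp51 and Nsdhl. Each measured member has 1 probe set, so taking the brightest left its values as they were. The replicate block, dropping dim genes, the robust prior with trend and the 0.01 threshold also left each log2 difference unchanged. A sign could therefore not change under these settings. Of the members not called, 3 were called lower under an alternative (Sc5d, Srebf2 and Acly). Replicate numbers did not pair the arrays (r of same-numbered deviations from the group means across genes was -0.03, -0.01 and -0.01). With the replicate number as a block, 11 members fell and 2 rose, 1919 of all genes changed in place of 2666, and 1 other pathway gene rose. At an adjusted p under 0.01, 1473 genes changed, 9 members fell, 4 of them sterol enzymes, and 5 other pathway genes fell and 1 rose. With an intensity trend 13 other pathway genes fell and 5 rose, and under median centring or a second quantile normalisation 1 rose. Leaving out each array gave 1830 to 2486 changed genes, 10 to 13 members that fell, 5 to 8 sterol enzymes that fell, 5 to 6 other pathway genes that fell and 1 to 2 that rose, and a fatty acid median from -0.23 to -0.10. The causes of these moves were not tested. Signal near background limits what can be said of Abcg1 and Mylip.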

Other observations

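Genes that lie beside the changed members on the chromosome were examined after the members' values were seen, using the 2 nearest protein-coding genes on each side in RefSeq order. Of 44 such neighbours with a value, 1 fell and 4 rose, 11.4% in all against 14.7% of all genes.

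The fatty acid desaturase genes Fads3, Fads2 and Fads1 lie next to each other. Fads2 and Fads1 fell, whereas Fads3, a relative that acts on sphingoid bases, had levels of 12.21, 12.15 and 12.10 in control and 12.63, 12.73 and 12.66 in NICD1 cells. Fads3 rose by 0.52 (SE 0.058; limma adjusted p = 0.00109) and kept its call under all alternatives. Fen1, on the other side of Fads1, differed by -0.03 and did not pass.

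Hsd17b7, one of the members that rose, lies beside Ddr2, a collagen receptor. Ddr2 had levels of 5.94, 5.83 and 5.72 in control, near the background of 5.74, and 6.65, 6.77 and 6.91 in NICD1 cells. It rose by 0.94 (SE 0.088; limma adjusted p = 0.000467), the same size as Hsd17b7, and Ccdc190, on the other side, differed by 0.16 and did not pass. Mtss1, beside Sqle, rose by 0.93 (SE 0.056; limma adjusted p = 6.71e-05), opposite to Sqle. The other neighbours called were Nipsnap3b, beside Abca1 (0.26), and Hcn3, near Fdps (-0.32). The call of Nipsnap3b was lost under 7 of 15 alternatives, 5 of which left out an array, and that of Hcn3 under 5, 4 of which left out an array.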
